A study of Mus musculus with 25 samples.

Results

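The region described here runs from Gse1 through Irf8 on mouse chromosome 8, a stretch of 535 kb whose first and last CpGs with reads lie at chr8:122752427 and chr8:123284773 on mm9. Its members are all CpGs in that stretch, and it was chosen by the methylation levels of fetal and young cells, since 3 tiles of 1 kb in it lost methylation strongly between them. In all, 1665 CpGs of the region had at least 5 reads in 1 or more of the 25 libraries, of 1587545 such CpGs in all. Values are the percent of reads methylated at a CpG or, summed over CpGs, in a tile of 1 kb.

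The study measured methylation by reduced representation bisulfite sequencing, which reads CpGs near the cut sites of a restriction enzyme, in haematopoietic stem cells of C57Bl/6 mice. The design followed these cells through ontogeny and through an enforced history of proliferation. Fetal cells came from fetal liver at e14.5 (2 libraries), and all others came from bone marrow: young cells at 3.5 months (2 libraries) and old cells at 25 months (2 libraries). Mice aged 3.5 months plus 6 months had received 0 (3 libraries), 2 (3 libraries) or 4 (2 libraries) doses of 5-fluorouracil (5-FU), which kills dividing cells. Transplanted groups derived from 10 (3 libraries), 50 (1 library) or 500 (1 library) young cells, and from 10 (2 libraries), 50 (1 library) or 500 (3 libraries) old cells. The labels give neither the age of the recipients, nor the time after transplantation, nor whether replicates were separate animals, so p-values measure only the spread between these libraries, which may be technical. A methylation level averages over all cells of a library, so a change in part of the cells and a change in the mix of cells cannot be told apart.

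Irf8 is a transcription factor of the interferon regulatory family that is needed for monocytes and dendritic cells and that restrains the formation of neutrophils. Its transcription is controlled by its promoter and by enhancers that lie far from it. Gse1 is a coiled-coil protein found with the CoREST histone deacetylase complex. Methylation of a CpG-rich promoter usually goes with a silent gene, whereas distal elements often lose methylation when they are used.

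The first of 2 RefSeq starts of Irf8 fell at base 123260258 on mm9, and 3 starts of Gse1 fell at 123012766, 123059757 and 123061309. The second Irf8 start could not be placed and was not read, so the Irf8 start named below is the first. These were placed by fitting the CpG spacing of RefSeq promoter sequences, on GRCm38.p6, to the CpG positions in the deposited files. The first Gse1 start lay 247492 bases before the Irf8 start in the files and also in RefSeq. Both genes lie on the plus strand. RefSeq's Gse1 begins 260365 bases before its first placed start and ends 92517 bases after it, and Irf8 reaches 20336 bases past its start. Whether a tile lies in an exon or an intron on mm9 was not analysed here. Of the 3 tiles that led to the choice, the far tile, with CpGs from 122794045 to 122794625, begins 466 kb before the Irf8 start and 219 kb before the first placed Gse1 start. The middle tile, with CpGs from 122906373 to 122906482, begins 354 kb and 107 kb before them. Both distances to Gse1 are within the part of that gene that RefSeq puts before the first placed start. The near tile, with CpGs from 123168659 to 123168829, begins 92.3 kb before the Irf8 start and 155 kb after the first placed Gse1 start, past the end of Gse1. Other tiles are named by their first base on mm9.

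The 250 bases before the Irf8 start and before the first placed Gse1 start are shown because both were read in every library. Capitals mark the CpGs that had 5 or more reads in 3 or more libraries. The Irf8 stretch is chr8:120736108-120736357 and the Gse1 stretch chr8:120488616-120488865, both on the plus strand of GRCm38.p6, from RefSeq.
Irf8: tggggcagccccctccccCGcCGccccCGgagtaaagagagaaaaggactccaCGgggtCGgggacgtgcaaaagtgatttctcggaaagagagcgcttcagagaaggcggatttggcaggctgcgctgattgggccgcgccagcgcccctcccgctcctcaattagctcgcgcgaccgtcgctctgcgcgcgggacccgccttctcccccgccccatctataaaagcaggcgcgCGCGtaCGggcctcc
Gse1: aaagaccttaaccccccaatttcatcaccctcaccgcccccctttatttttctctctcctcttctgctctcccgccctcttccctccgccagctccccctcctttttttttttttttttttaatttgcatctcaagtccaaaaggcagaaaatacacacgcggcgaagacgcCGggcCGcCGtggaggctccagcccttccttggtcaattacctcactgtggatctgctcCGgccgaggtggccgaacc
The Irf8 stretch holds 29 CpGs, of which 8 were so covered, and the Gse1 stretch holds 13, of which 4 were so covered. The covered Irf8 CpGs sit at both ends of the stretch. The motif TTCNNNGAA, which reads the same on both strands and is the form bound by STAT factors downstream of interferon, occurs at 2 places in the Irf8 stretch. One of these, TTCTCGGAA, holds a CpG that had 5 or more reads in no library. The motif occurs in 7.02% of the 32851 RefSeq promoters of the same length, 2306 in number.

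The promoters at the placed starts of both genes were almost free of methylation in nearly every library, from fetal to transplanted cells. Over the 300-base windows around the starts, from 250 bases before to 50 after, the first Gse1 start read between 0 and 0.995%, the second between 0 and 2.1% and the third between 0 and 3.81%. The Irf8 window read a median of 0.61% over 25 libraries. Its highest value, 27.3%, was in the first library with 0 doses of 5-FU, from 22 reads at 3 CpGs, and the next highest was 4.39% in the first young library. The wider tile at 123260001, which holds the Irf8 start and the first bases of the gene, read 6.88% and 6.09% in fetal, 6.84% and 3.88% in young and 9.44% and 9.26% in old cells. In the 11 transplanted libraries this tile read from 0.44% to 4.46%, below both fetal and both old libraries. The share of all tiles separated in this way was not taken. The tile was not called in any tested comparison. A call needs a difference of 10 points or more, and no library read above 9.44% at this tile. A loss there could therefore not be called, and nothing is read from the absence of a call.

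Over the whole region, 122 tiles of 1 kb had 3 or more CpGs with at least 5 reads in all fetal, young and old libraries. Of these, 31 were under 20% in every library with a value, with a median of 11 CpGs per tile, and they include the tiles at the starts. A further 39 were over 60% in every library with a value, with a median of 4 CpGs. The other 52 tiles, also with a median of 4 CpGs, fell in neither class, and the 3 chosen tiles are among them. Of the 31 low tiles, 13 had their centre within 5 kb of a placed start and 18 lay farther away. Among the latter, the tiles at 122752001 and 122753001 held 54 and 75 CpGs and read at most 1.99% in any library. The first of them begins 261 kb before the first placed Gse1 start, about the distance at which RefSeq's Gse1 begins. The tiles at 123158001, 123191001 and 123192001, past the end of Gse1, held 33, 37 and 37 CpGs and read at most 5.16%.

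**Figure D1:**
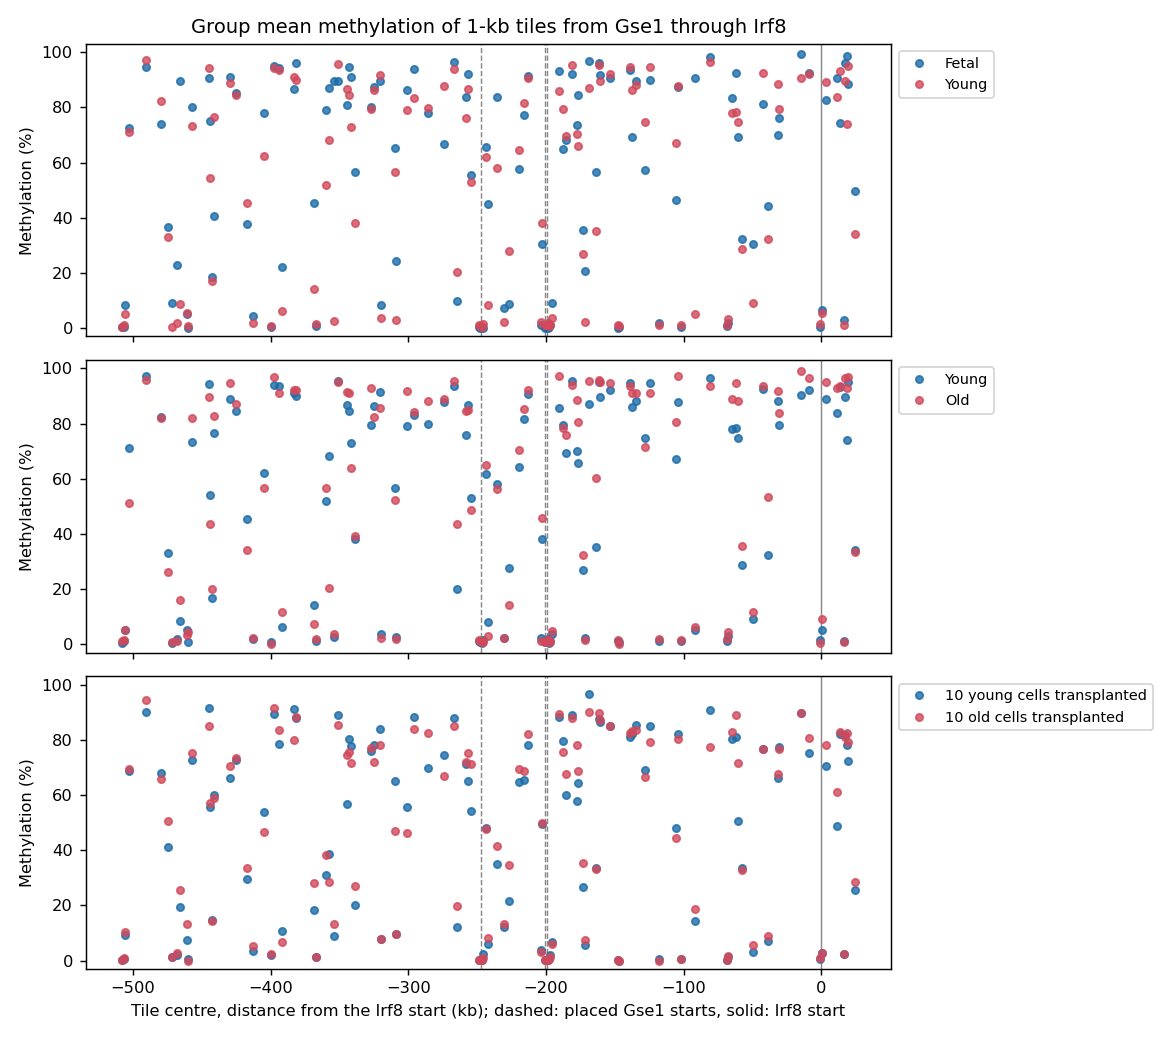
Group mean methylation (%) of the 1-kb tiles against the distance of the tile centre from the Irf8 start (kb), for fetal and young (top), young and old (middle), and 10 transplanted young or old cells (bottom). Each point is 1 tile; dashed lines mark the 3 placed Gse1 starts and the solid line the Irf8 start, where the tiles are low in all these groups.

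The chosen tiles were almost fully methylated in fetal cells and nearly unmethylated in young cells. Because this difference chose them, it is a description and was not tested. The far tile, with 7 CpGs, read 85.5% and 93.3% in the fetal and 8.09% and 9.08% in the young libraries. The middle tile, with 4 CpGs, read 90.9% and 88.2% in the fetal and 2.18% and 2.83% in the young libraries. The near tile, with 3 CpGs, read 95.2% and 85.9% in the fetal and 4.53% and 6.03% in the young libraries. Both fetal libraries were thus high and both young libraries low at all 3 tiles. Among all 100896 tiles, these were the second to the fourth largest losses from fetal to young (ranks 4, 2 and 3). The next largest loss in the region, at 123018001, was -36.6 points and ranked 690.

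All later groups stayed on the young side at the 3 tiles. At the far tile the 23 libraries outside fetal lay between 8.09% and 28.7%, with a median of 18.2%. At the middle tile they lay between 1.23% and 22.1%, with a median of 6.95% and no value for the second library with 4 doses. At the near tile they lay between 0 and 31.6%, with a median of 14.1% and no value for the second library of 10 old cells. No library outside fetal overlapped a fetal library at any of them. The fewest reads behind a value were 135, 58 and 20 in the order of the tiles, so single libraries of the near tile are the least precise.

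**Figure D2:**
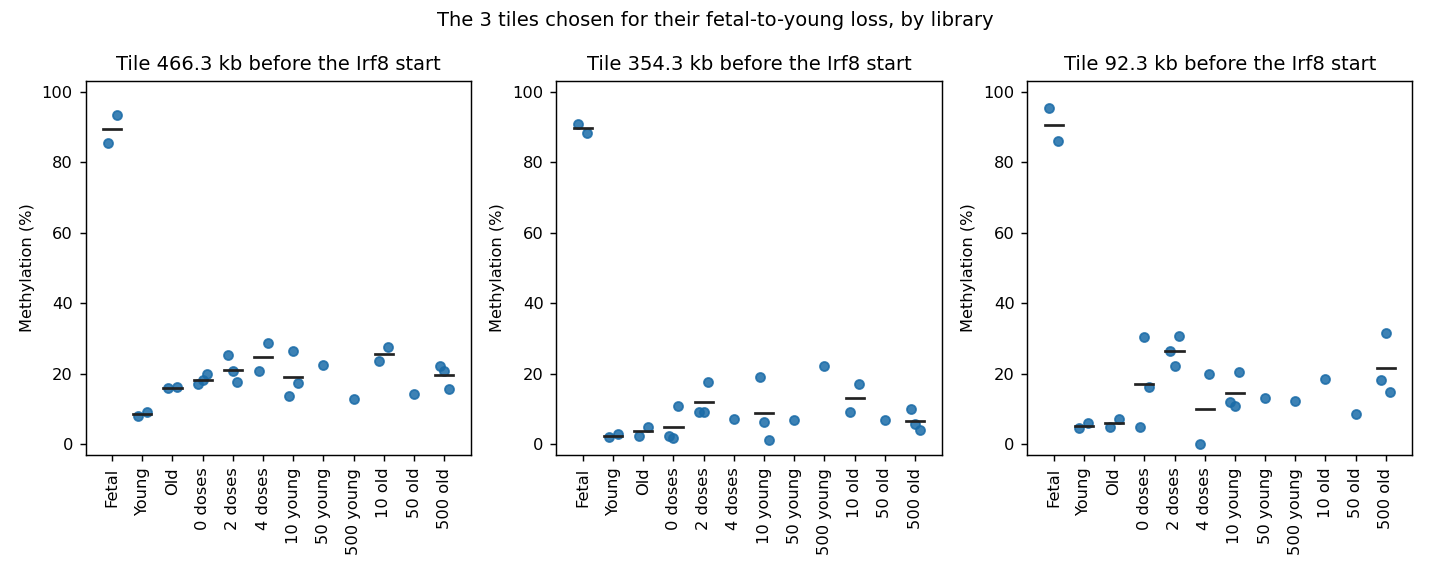
Methylation (%) of the 3 chosen tiles in the 12 groups; points are libraries and lines are means of groups with 2 or more libraries. The 2 fetal libraries are between 85.5% and 95.2% in all 3 panels, and no other library is above 31.6%.

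Within the far tile the loss was not uniform. Its first CpG, at 122794045, read 97.8% ± 3.12 (SD, n = 2) in fetal and 92.1% ± 7.39 (n = 2) in young cells, and lay between 73.9% and 100% in every library outside fetal. The other 6 CpGs begin 425 bases further on and span 154 bases. Together they fell from 86.8% ± 5.02 (SD, n = 2) in fetal to 3.27% ± 0.809 (n = 2) in young cells, and their means in the other 10 groups were between 6.25% and 10.5%. The tile's level in later groups therefore mixes 1 methylated CpG with 6 nearly unmethylated ones. Among these 6, the CpG at 122794608 stood higher, with group means outside fetal between 12.6% and 42.5%. In the middle tile all 4 CpGs read between 88.6% and 91.1% in fetal and between 1.08% and 3.81% in young cells. In the near tile the CpG at 123168679 was the lowest in fetal cells, at 75.9% ± 15.4 (SD, n = 2). With 2 doses of 5-FU, the CpGs at 123168659 and 123168828 had group means of 55.3% ± 47.2 (SD, n = 3) and 40.8% ± 42.7 (n = 3). Their libraries ranged from 5.88% to 100% on 5 to 17 reads, and from 13% to 90% on 10 to 31 reads.

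**Figure D3:**
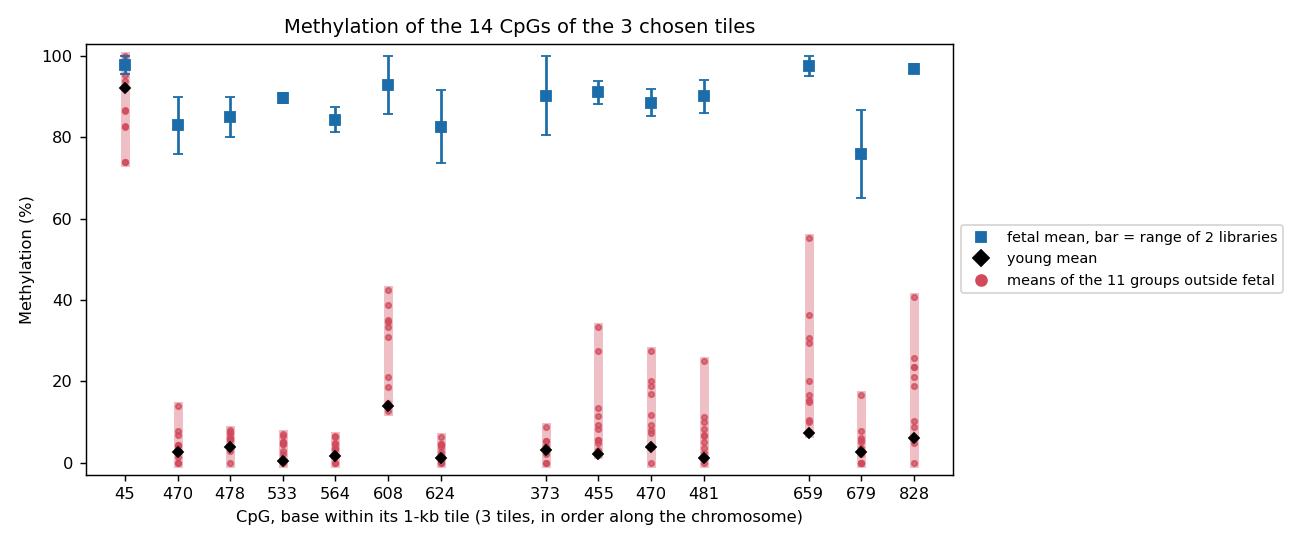
Methylation (%) of the 14 CpGs of the 3 chosen tiles, by their base within the tile. Squares are fetal means with the range of 2 libraries, diamonds young means, and dots the means of the 11 groups outside fetal; the first CpG stays at 73.9% or more in all of these groups, and the other 13 do not.

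By the rule used for the tests below, 16 tiles of the region, the 3 chosen ones included, were lower and 8 higher in young than in fetal cells, or 13.1% and 6.56% of 122. Over all tiles 3.82% were lower and 1.92% higher. The comparison chose the region and these tiles, so nothing is read from these shares or from the counts that follow. The shares over all tiles that would match those counts were not taken. At 5 of the 13 lower tiles besides the chosen ones, all other libraries lay on the young side of the midpoint between the fetal and young means. At 8 of the 13, all other libraries lay below both fetal libraries. Of the 8 higher tiles, 1 had all other libraries on the young side and 2 had all of them above both fetal libraries. One of these 2, at 122819001 and 441 kb before the Irf8 start, read 38.3% and 43% in fetal and 74.9% and 78.2% in young cells.

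The remaining comparisons were tested with a quasi-binomial model of the methylated and total reads of each tile, fitted over all autosomal tiles. A tile was called at a Benjamini-Hochberg adjusted p under 0.05 from that model and a difference of 10 percentage points or more.

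Old cells were higher than young cells at 3 tiles of the region and lower at 1, of 122 tested. These are 2.46% and 0.82% of the region's tiles, against 3.24% higher and 0.201% lower over all tiles. The median difference was 0.897 points in the region and 1.54 points over all tiles. The single loss was the largest change: the tile at 122902001, 358 kb before the Irf8 start, read 65.1% and 71.1% in young and 23.3% and 17.2% in old cells (-47.8 points, adjusted p = 0.000193). It lies close to the middle chosen tile, which read 2.42% and 4.96% in old cells. The tile at 123096001, 164 kb before Irf8, rose from 33% and 37.6% to 58.5% and 62.4% (25.2 points, adjusted p = 0.00545). The tile at 123221001, 39.3 kb before Irf8, rose from 33.5% and 31.1% to 58% and 49.1% (21.3 points, adjusted p = 0.0308). The tile at 123198001 rose from 79.2% and 77.5% to 96.4% and 93% (16.4 points, adjusted p = 0.0407). On the log ratio of methylated to unmethylated reads, limma called only the loss at 122902001 among these 4 tiles. With a minimum of 1 CpG per tile, the calls at 123221001 and 123198001 were lost. The latter was also lost with the replicate number as a block. Young and old libraries did not overlap at these 4 tiles, but the tiles were picked by their calls, so this adds nothing to them. The number of calls fell to 0, 1, 1 and 2 when the first old, the second old, the first young or the second young library was left out, and 1 group then had a single library.

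No tile of the region was called for time or 5-FU. The model called 0 of 76 tiles for 0 doses against young, 0 for 2 against 0 doses and 0 for 4 against 0 doses, where it called 0.014%, 0.00524% and 0.00175% of all tiles in either direction. At an unadjusted p under 0.05 there were 6, 3 and 9 tiles in the region (7.89%, 3.95% and 11.8%, against 5.58%, 4.6% and 8.06% of all tiles). On the log ratio of methylated to unmethylated reads, limma also called 0 region tiles in each, and 111, 249 and 404 of all 57204 tiles. The median differences in the region were 0.2, -0.527 and -0.191 points, against 0, -0.511 and -0.00552 over all tiles. These groups were shallow: the libraries with 0 and 4 doses had a median of 16 to 21 reads per CpG in the region, against 53 and 66 in young. At the far chosen tile, the means were 8.59% ± 0.695 (SD, n = 2) in young, 18.4% ± 1.43 (n = 3) after 0 doses, 21.2% ± 3.85 (n = 3) after 2 doses and 24.8% ± 5.53 (n = 2) after 4 doses. The difference between 0 doses and young, 9.81 points, had an adjusted p of 0.848 in the model, and the young value had taken part in the choice of the tile. Over the 6 CpGs without the first, young read 3.27% ± 0.809 (SD, n = 2) and 0 doses 6.26% ± 3.83 (n = 3). With 2 doses they read 6.85% ± 4.28 (n = 3). With 4 doses they read 10.4% ± 12.7 (n = 2), from libraries at 1.41% and 19.4%.

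After transplantation more tiles of the region were lower than higher, as over all tiles. With 10 young cells, 19 of 105 tiles were lower and 2 higher than in young. These are 18.1% and 1.9%, against 16.8% lower and 1.08% higher over all tiles. With 10 old cells, 18 tiles were lower and 5 higher than in old cells, 17.1% and 4.76%, against 22.5% and 0.558% over all tiles. With 500 old cells, 13 were lower and 2 higher, 12.4% and 1.9%, against 7.5% and 0.366% over all tiles. The share lost was near that of all tiles with 10 young cells, below it with 10 old and above it with 500 old cells; these departures were not tested. The median differences were -2.13, -4.85 and -2.48 points, smaller in each than the -4.43, -6.41 and -3.82 points over all tiles. Both comparisons of old cells share the old libraries. Between the comparisons of 10 young and 10 old cells, which share none, 13 lower tiles were common, 68.4% of 19 and 72.2% of 18; over all tiles 9174 were common, 60.3% of 15208 and 45.1% of 20361. Whether the region differs from all tiles in this was not tested.

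These counts rest on few libraries, and without 1 of the young or old ones a group of 1 remains, whose spread is assumed to be that of the other groups. With 10 young cells, 8 and 1 tiles were called without the first and the second young library. With 10 old cells, 7 were called without the first of the transplanted libraries, and 1 and 2 without the first and the second old library. With 500 old cells, 0 and 2 were called without the first and the second old library, and 4 and 9 without the first and the second transplanted library. Of the 52 calls on the named tiles of the region, old against young included, none changed direction under any alternative run and 2 were kept under all of them, those at 123271001 with 10 young and at 123221001 with 10 old cells. The tiles over 60% in every library held 10, 11 and 5 of the lower calls in the order above, of 32 tested. The matching share among all tiles over 60% was not taken, and the transplanted libraries helped to set this class. Nothing is therefore read from these counts. The tiles under 20% held none of 30, but most of them stood too low in every library to lose 10 points. Nothing is therefore read from that absence. Summed over the reads of the tiles over 60%, the level was 89.3% to 90.8% in young, 80.9% to 82.2% with 10 young cells, 92% to 92.2% in old, 81% to 81.7% with 10 old cells and 82.9% to 84.3% with 500 old cells. Over the tiles under 20% it was 1.47% to 1.61% in young, 1.79% to 2.11% in old, and 0.942% to 1.69% in the transplanted libraries. The level of unmethylated tiles thus also differed between these sets of libraries, by under 2 points, and its part in the results was not tested.

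**Figure D4:**
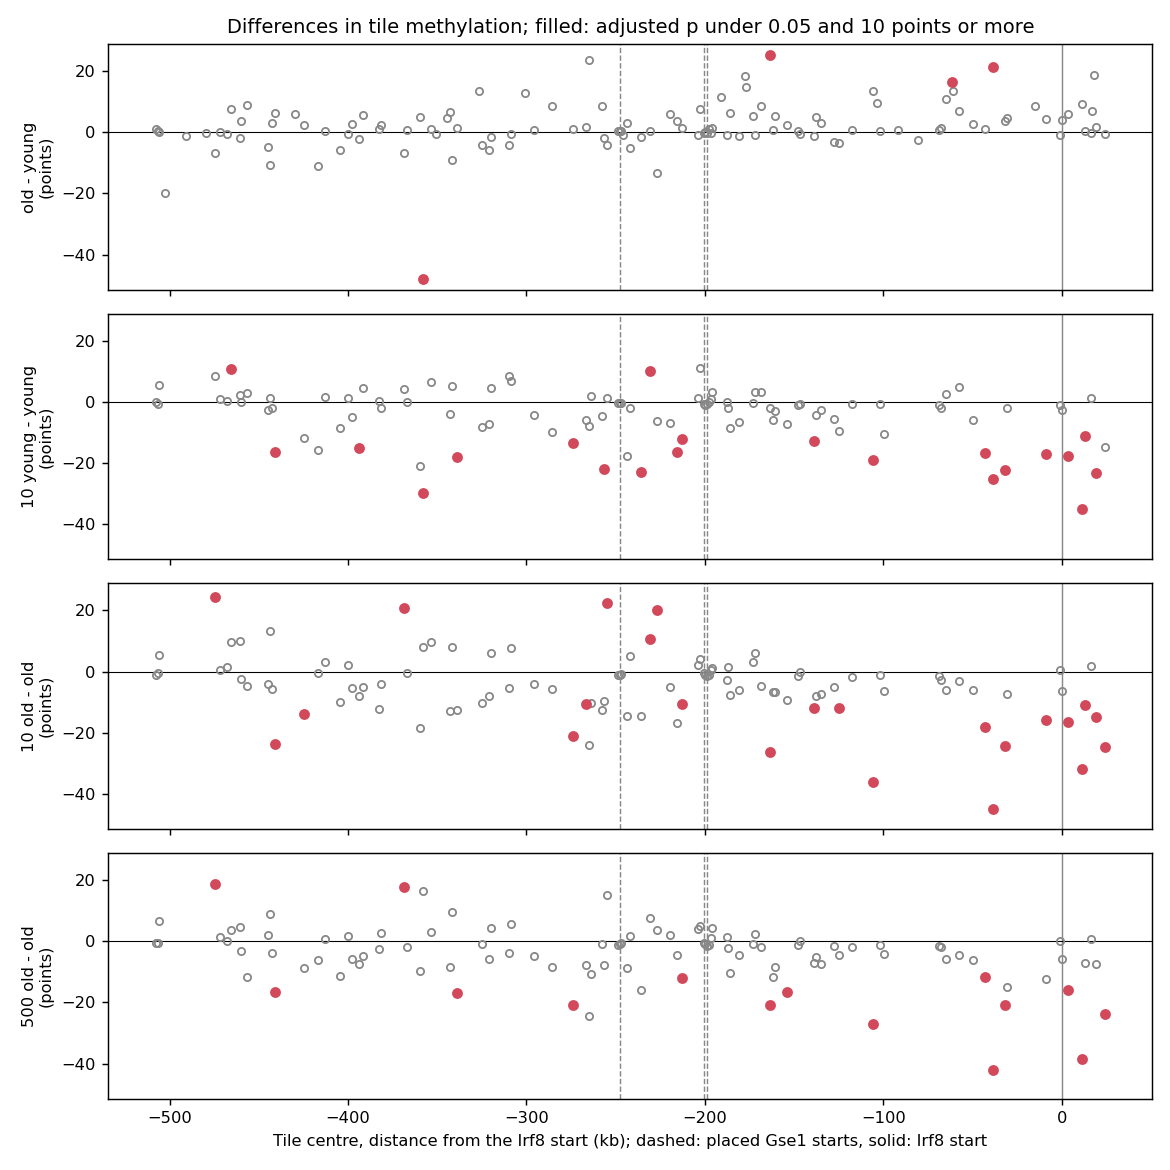
Difference in methylation (percentage points) of each tile tested against its distance from the Irf8 start (kb), for old against young and for 3 transplant comparisons. Filled points passed an adjusted p of 0.05 with 10 points or more; lines mark the starts as in the plot along the region, and in the 3 lower panels all filled points right of the last placed Gse1 start are below 0.

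Tiles lower after transplantation were also found along Irf8 itself. Of the 7 tiles tested from the Irf8 start to the end of the region, 4, 5 and 3 were lower with 10 young, 10 old and 500 old cells, and none was higher; over all tiles 16.8%, 22.5% and 7.5% were lower, and with so few tiles nothing is read from the counts. The tile at 123271001, 10.7 kb after the start and within the gene's length, read 85.2% and 82.6% in young and 92.4% and 93.7% in old cells. It read 45%, 57.2% and 44.6% in the libraries of 10 young cells, 62.5% and 59.7% in those of 10 old cells, and 53.4%, 62% and 48.5% in those of 500 old cells. All transplanted libraries were below all young and old ones, and the single libraries of 50 young, 500 young and 50 old cells read 64.3%, 30.2% and 61.3%. This tile too was picked by its calls, so the separation of the groups compared adds nothing to them, and the share of all tiles so separated was not taken. The libraries with 5-FU overlapped the transplanted ones, at 61.9% to 86.3% with 0 doses and 52.7% to 81.3% with 2 doses, while 4 doses read 89.6% and 90.5%. The differences were -34.9, -31.9 and -38.4 points (adjusted p = 0.00129, 0.00128 and 0.000508 in the quasi-binomial model), and without the first old library both calls against old were lost. This tile also had the widest range of group means outside fetal in the region, 62.8 points. The lower end of that range was the single library of 500 young cells, at 30.2%. The tile at 123263001, 2.74 kb after the start, was lower in the same order (-17.6, -16.5 and -16 points, adjusted p = 0.00809, 0.00695 and 0.00902). The tile at 123279001, 18.7 kb after the start, was lower with 10 young and 10 old cells (-23.1 and -14.7 points, adjusted p = 0.00397 and 0.0148). The tile at 123284001, past the end of the gene, was lower with 10 old and 500 old cells over 4 CpGs (-24.8 and -23.9 points, adjusted p = 0.0133 and 0.0198). Its level depends on which CpGs are summed: over 4 CpGs the old mean was 56.1%, and over 6 it was 33.3%. Over the 6, the old libraries read 36% and 30.7%, those of 10 old cells 21% and 36.1% (the latter from 4 of the 6 CpGs) and those of 500 old cells 28.1%, 17.2% and 34.3%. The losses were thus several times smaller over 6 CpGs, and the groups overlapped.

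Upstream of Irf8, the tile at 123221001 had the largest losses of the tested tiles in both comparisons against old. With 10 young cells its loss was exceeded upstream by that of the tile at 122902001 (-29.7 points). It read 33.5% and 31.1% in young and 58% and 49.1% in old cells, and then 5.1%, 10.6% and 5.45% after transplanting 10 young cells, 5.22% and 12.2% after 10 old cells and 14.4%, 7.93% and 12.5% after 500 old cells. The single libraries of 50 young, 500 young and 50 old cells read 9.38%, 6.72% and 11.9%, so that all 11 transplanted libraries lay below all others. The tile was picked by its calls, so the separation of the groups compared in them adds nothing to those calls. The share of all tiles separated in this way was not taken. The fetal libraries read 47.8% and 40.7%, and the libraries with 0, 2 or 4 doses of 5-FU between 18.5% and 49.5%. The differences were -25.2, -44.8 and -41.9 points (adjusted p = 0.00222, 0.000515 and 0.000596). With 10 young cells the call was lost without the second young library, and with 500 old cells without the first old library. Nearby, the tiles at 123217001, 123228001 and 123251001, 43.3, 32.3 and 9.26 kb before the start, were lower with 10 young and with 10 old cells (-15.9 to -24.3 points), and the first and second of them also with 500 old cells.

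**Figure D5:**
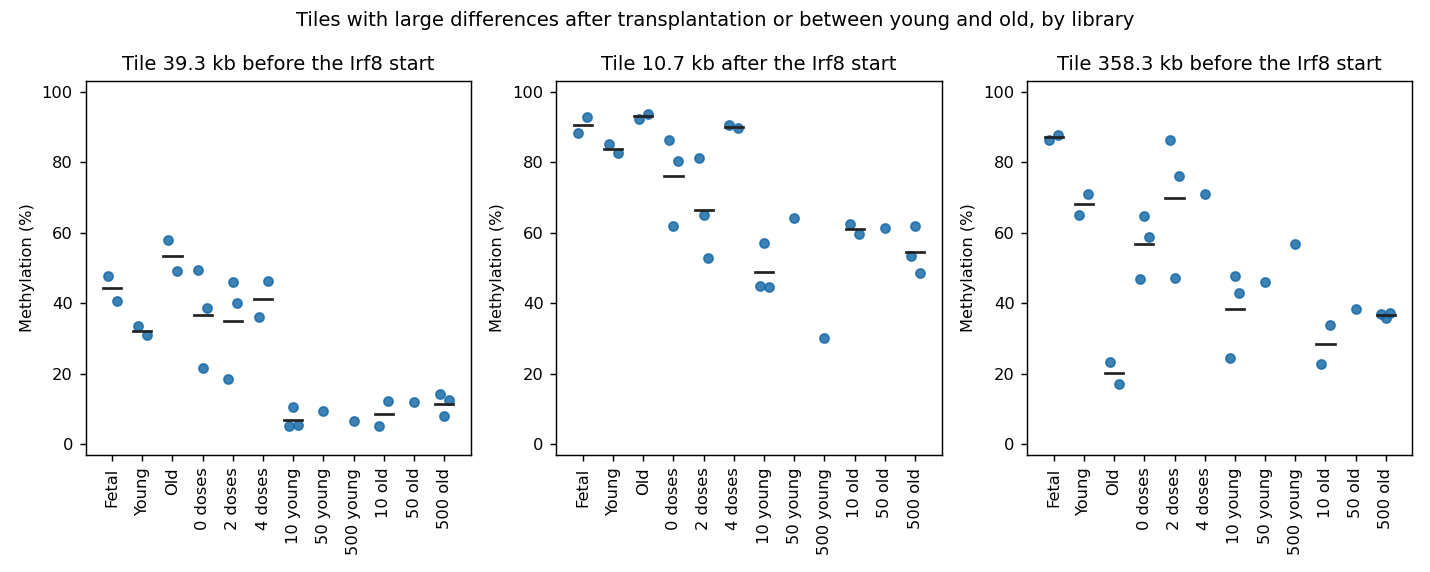
Methylation (%) by library of the tiles at 123221001 (left), 123271001 (middle) and 122902001 (right) in the 12 groups; points are libraries and lines are means of groups with 2 or more libraries. In the left panel the 11 transplanted libraries are between 5.1% and 14.4% and the others between 18.5% and 58%. The tiles were picked by their calls, so the separation of the groups compared adds nothing to those calls.

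Between Gse1 and Irf8, the tile at 123154001, 106 kb before the Irf8 start, read 63.4% and 70.6% in young and 75.2% and 86% in old cells. It read 38.4%, 51.5% and 54.3% with 10 young, 50.2% and 38.9% with 10 old and 45.9%, 61.3% and 53.2% with 500 old cells. The differences were -18.9, -36.1 and -27.1 points (adjusted p = 0.0322, 0.00412 and 0.0147). The tile at 123096001 begins 83.2 kb after the first placed Gse1 start, within the length of Gse1 in RefSeq. There, where old cells had stood above young ones, 10 old cells read 34.9% ± 9.78 (SD, n = 2) and 500 old cells 40.1% ± 7.03 (n = 3) over 6 CpGs. The differences from old were -26.2 and -21 points (adjusted p = 0.00724 and 0.0256).

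Around and within Gse1 the changes went both ways. The tile at 122819001, low in fetal cells, was lower after transplantation in all 3 comparisons (-16.3, -23.8 and -16.5 points; adjusted p = 0.0175, 0.00573 and 0.0274), as was 122986001 (-13.4, -21.2 and -21 points). The tile at 122921001 was lower with 10 young and with 500 old cells (-17.9 and -17 points). Tiles lower with 10 young cells alone among the 3 comparisons were 122866001, 122902001, 123003001, 123024001 and 123044001 (-15 to -29.7 points); whether they differ between comparisons was not tested. The tile at 122785001 rose from 22% and 30.7% in old to 44.1% and 57% with 10 old cells and to 51.5%, 51.1% and 32.4% with 500 (24.2 and 18.7 points; adjusted p = 0.0127 and 0.0399). The tile at 122891001 rose from 6.36% and 8.33% to 29.3% and 26.8% with 10 old and to 29.6%, 31.4% and 14.4% with 500 old cells (20.7 and 17.8 points; adjusted p = 0.0139 and 0.0289). The tiles at 123005001 and 123033001 were higher with 10 old cells by 22.3 and 20.3 points (adjusted p = 0.0415 and 0.0389 in the quasi-binomial model). The first of these calls was lost in 7 of 11 alternative runs and the second in 3 of 10. Outside the rule for named tiles, and chosen after its values were seen, the tile at 123029001 was the only one higher with both 10 young and 10 old cells, 12.2% ± 3.21 (SD, n = 3) against 2.2% ± 0.674 (n = 2) and 13.1% ± 2.96 (n = 2) against 2.43% ± 0.0407 (n = 2).

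At the chosen tiles no transplanted library read above 31.6%, far below the fetal libraries. At the far tile, 10 young cells read 13.9%, 26.5% and 17.3%, a call of 10.6 points above young (adjusted p = 0.0327) that is not independent of the choice of the tile. Over its 6 CpGs without the first, the levels were 7.51% ± 2.73 (SD, n = 3) and 3.27% ± 0.809 (n = 2). The call was lost in 6 of 12 alternative runs. These include the runs without the second transplanted library or either young one. The others were the correlation from the mean dispersion, the limit of 20 points and the fit of all 25 libraries. With 10 old cells the tile read 23.5% and 27.6%, 9.51 points above old (adjusted p = 0.122). At the middle tile, 10 young cells read 19.1%, 6.25% and 1.23%, and 10 old cells 9.15% and 17.2%, and neither comparison was called (adjusted p = 0.146 and 0.139). The near tile was not tested after transplantation, since a library of 10 old cells had no value. It read 10.9%, 12.2% and 20.4% with 10 young cells and 18.7% in the library of 10 old cells with a value. The young libraries, which took part in the choice of the tile, read lower. With 500 old cells it read 21.6% ± 8.8 (SD, n = 3), between 15% and 31.6%, against 6.14% ± 1.61 (n = 2) in old. These values are a description, and nothing is read from them.

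A further 2 tiles had wide ranges of group means outside fetal without a call. The tile at 122995001 read 9.76% and 30.6% in young, 38.6% and 49% in old, 42.3% to 60.3% with 0 doses, and 2.86% to 24.7% with 10 young cells. The tile at 123057001 read between 30.8% and 71.1% in the groups outside fetal other than 4 doses, where it read 11.5% and 0.

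Over 23 libraries with values at all 3 chosen tiles, the tiles' levels correlated with one another at r = 0.949, 0.93 and 0.918, and over the 21 of these outside fetal at r = 0.0412, 0.405 and 0.204. The high values thus rest on the 2 fetal libraries. The 5 tiles elsewhere with the most similar pattern, by the correlation with the mean of the 3 tiles over these libraries among 65308 tiles, were on chromosome 2 at 101592001 (r = 0.989), 16 at 29001001, 7 at 85982001, and 10 at 7559001 and 66384001 (r = 0.974 to 0.976). Their fetal means were 65.9% to 81% and their young means 1.49% to 3.06%, and no library outside fetal exceeded 20%. The nearest starts that could be placed within 100 kb were those of Traf6 (73.9 kb), Mb21d2 (71.7 kb), Det1 (9.6 kb) and Ginm1 (58.8 kb).

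Among genes related by function, starts could be placed for 4 of 8 other interferon regulatory factors (Irf1, Irf2, Irf4 and Irf5), 7 of 12 myeloid and dendritic regulators and, on the autosomes, 6 of 9 members of the CoREST complex. Within 5 kb of the starts of the interferon regulatory factors, 0 of 13 tiles were called by the quasi-binomial model for old against young or after transplantation, and 0 of 10 for 5-FU. Of all tiles, 3.24% were higher and 0.201% lower in old than in young, and 16.8%, 22.5% and 7.5% were lower and 1.08%, 0.558% and 0.366% higher in the 3 transplant comparisons; with so few tiles near each list, nothing about the lists is read from their counts. Near the myeloid regulators, a tile of Gfi1, a repressor active in granulocyte precursors, was higher in all 3 transplant comparisons (19.4, 20.6 and 19.7 points; adjusted p = 0.0168, 0.0248 and 0.0394), of 28 tiles. A tile of Runx1 was lower with 500 old cells (-16.1 points, adjusted p = 0.0233). Near the CoREST members, 1 of 17 tiles, at Hmg20b, was higher with 10 old cells (18.2 points, adjusted p = 0.0445). None of these 3 lists had a tile called for old against young or for 5-FU. Between fetal and young cells, given as a description, a tile of Irf1 was lower in young (-30.5 points), a pair of Runx1 tiles higher (70.7 and 86.5 points) and the Gfi1 tile higher (11.3 points).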

How the data were processed

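Methylation was measured in 25 libraries by reduced representation bisulfite sequencing in a form for small cell numbers (per the labels). Each deposited file lists CpGs with methylated and total read counts, and a score that the authors set to the methylated share scaled up and rounded down. The submitters' processing notes name mm9. The aligner, caller and read filters were not given in the sources used here. Library totals were 22835325 to 105187091 reads, and median depths in the region were 16 to 66 reads per CpG. Reads without molecular identifiers are not independent molecules.

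CpGs with 5 or more reads in every library of a fit were summed in 1000 bp tiles with 3 or more CpGs, on 19 autosomes. A quasi-binomial model was fitted per tile with Williams' weights, 1 within-library correlation per fit (0.00571, 0.0161 and 0.00828) and a dispersion moderated by limma 3.58.1 (R 4.3.3) over all tiles and held at 1 or more. Fits held fetal, young and old (6 libraries), young and 5-FU (10 libraries), or young, old and transplanted cells (15 libraries), with residual degrees of freedom of 3, 6 and 7. P-values came from an F test with Benjamini-Hochberg adjustment over 100896, 57204 and 90382 tiles. The fit was tested on simulated reads. A first fit took that correlation from the mean dispersion; after its calls were seen it was replaced by the median, which a few very deep tiles do not move, and the closing section gives both counts.

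The region, its tiles and the gene lists were chosen with earlier results of these data known. Tiles named were the 3 chosen ones, up to 25 of the 32 called in any tested comparison by size of difference, the 5 with the widest range of group means outside fetal, and those at the gene starts. Starts were to be taken from an mm9 annotation, which was not used here; placing them by CpG spacing was added after the files were seen. A start was placed where 8 or more CpGs listed in 3 or more libraries all matched the sequence at 1 position of the chromosome. Likeness was to be read over 25 libraries, but 2 had no value at a chosen tile. Python 3.11.15 with numpy 2.4.6, scipy 1.17.1, pandas 2.3.3 and matplotlib 3.10.9 was used.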

Additional observations from a re-analysis of the deposited data

Results flagged for a closer look

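The tile at 122902001, 358 kb before the Irf8 start, was lower than young with 10 young cells, while with 10 old cells its mean lay above that of old without passing the test. Against young, 10 young cells differed by -29.7 points, with every transplanted library (24.5%, 47.7% and 43.1%) below the young mean of 68.1%. Against old, 10 old cells differed by 8.13 points, with both transplanted libraries (22.9% and 33.9%) above the old mean of 20.3%. That difference was under 10 points and was not called (adjusted p = 0.386 in the quasi-binomial model), and the lower transplanted library, at 22.9%, lay below the higher old one, at 23.3%. The difference between these effects was not tested, and the young and old means themselves lay 47.8 points apart.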

How the results depend on the processing

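The counts of called tiles in the region depended on the settings. Old against young gave 4 calls, and 2 with at least 10 reads per CpG, 2 with the correlation taken from the mean dispersion (chosen after seeing the data), 1 with limma, 0 in 1 fit of all 25 libraries and 0 to 2 without each library in turn. For 10 young cells against young, 21 calls became 7 at 20 points, 5 with all 25 libraries and 1 to 21 without each library. For 10 old cells against old, 23 became 12, 7 and 1 to 18, and for 500 old cells against old 15 became 7, 2 and 0 to 16. With the mean dispersion these 3 gave 20, 19 and 13. The fit of all 25 libraries tested 70 region tiles. For the 3 comparisons of 5-FU and time the count was 0 under all alternatives. With the replicate number as a block the counts were 3 for old against young, 0 for 5-FU and time, and 23, 23 and 17 after transplantation. Same-numbered libraries of compared groups did not vary together (correlations -0.0789 to 0.0503 over 15 pairs), so the numbers were not taken to pair them. The mean young minus fetal difference of the 3 chosen tiles stayed between -85.1 and -83.7 points without each fetal or young library. With 10 reads per CpG or with equal weight for each CpG, all 33 group means of the chosen tiles outside fetal were under 50%. The cause of these changes was not tested. Groups of 1 library have no replicate error.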
